A study of Homo sapiens with 4 samples.

Results

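The state that LX-2 cells had reached after 24 h with BDS4 and TGF-β together was set against that of cells given neither. LX-2 is a human hepatic stellate cell line, immortalised and kept in culture as 1 line, and it stands for the cell type only to that extent. All genes with at least 1 CPM in either of the 2 libraries were compared. CPM are counts scaled to 1000000 per library. This kept 15707 of the 63241 genes in the deposited table. The BDS4 plus TGF-β cells received BDS4 at 5 µM together with TGF-β at 20 ng/mL for 24 h, and the control cells received no TGF-β and no compound. Before that, cells of both groups were starved for 24 h in medium with 0.5% serum. The series holds 2 further libraries, of cells given 5 µM RVX-208 plus TGF-β and of cells given TGF-β alone, and their values are printed beside the comparison for reference. Each group is 1 library, so no difference could be set against variation between cultures, no test was run and no value has an SD. The labels give DMSO for TGF-β alone but give no vehicle for the control, so vehicle and treatment cannot be told apart if only treated cells received it.

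Stellate cells store vitamin A in the healthy liver and turn into matrix-producing myofibroblasts on injury. TGF-β is the main cytokine behind that change. It binds a receptor kinase pair that phosphorylates SMAD2 and SMAD3, which enter the nucleus and raise transcription of collagens, fibronectin and feedback inhibitors. BET proteins read acetylated lysines on histones through a pair of bromodomains and help bring the elongation kinase P-TEFb to active genes. RVX-208 (apabetalone) is a BET inhibitor that prefers the second bromodomain. BDS4 appears under a code name only, in a study whose title concerns lysine-targeting covalent inhibitors of the first.

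The libraries held 21618509 counts (BDS4 plus TGF-β), 17022369 (RVX-208 plus TGF-β), 21860122 (TGF-β) and 22503094 (control). Mitochondrial ribosomal RNA made up 0.903% of counts in the BDS4 library and 0.212% to 0.248% in the other 3, and mitochondrial mRNAs 0.891% against 1.47% to 1.49%. Of 18 stellate cell markers, 9 reached 1 CPM. VIM (vimentin) stood at 4080 CPM in BDS4 plus TGF-β cells and 3290 CPM in control cells, and ACTA2 (α-smooth muscle actin) at 19.2 and 21.5 CPM. The vitamin A gene LRAT had 0 counts in both libraries, DES had 11 and 0 counts and PDGFRA 11 and 13 counts, so the line lacks several markers of stellate cells in tissue. Among hepatocyte markers only SERPINA1 reached 1 CPM (1 of 11), at 1.47 CPM in BDS4 plus TGF-β cells and 2.34 CPM in control cells, and ALB had 3 and 2 counts. Macrophage markers reached 1 CPM in 5 of 9 cases (CD68, CSF1R, ADGRE1, CLEC4F and CD14), with 1 lower (CD14, 3.09 and 6.57 CPM). The whole list summed to 24.0 CPM in BDS4 plus TGF-β cells and 43.1 CPM in control cells. MARCO and VSIG4 had 0 counts in both libraries. Endothelial markers reached it in 3 of 8, with KDR higher (10.2 and 4.44 CPM), TEK and VWF lower and STAB2 and LYVE1 at 0 counts.

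Ratios below are BDS4 plus TGF-β over control, with a 95% counting interval in brackets, and that interval covers counting error alone. Genes were called when the ratio reached 2-fold in either direction with an interval that excluded no change. By that rule 2377 of 15707 genes were higher (15.1%) and 2853 lower (18.2%), together 33.3% of the genes compared. Counts in the gene lists below stand beside these shares, and a list near them does not stand apart from all genes. At 4-fold or more there were 739 higher and 935 lower genes, and 7139 genes (45.5%) lay within 1.5-fold. The median log2 ratio of all genes compared was 0.00, with quartiles at -0.69 and 0.61. Scaling by total counts instead moved this median to -0.18 and the higher share of all calls to 35.0%, against 45.4% with the scaling used here. Among protein-coding genes, calls were more frequent at low levels, where level is the geometric mean of both libraries. A gene nearly absent from either library falls into a low bin because of its ratio, so bins and calls are not independent. In the lowest of 5 equal bins by level 22.4% were higher and 35.3% lower, and in the highest bin 11.5% and 6.19%.

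**Figure D1:**
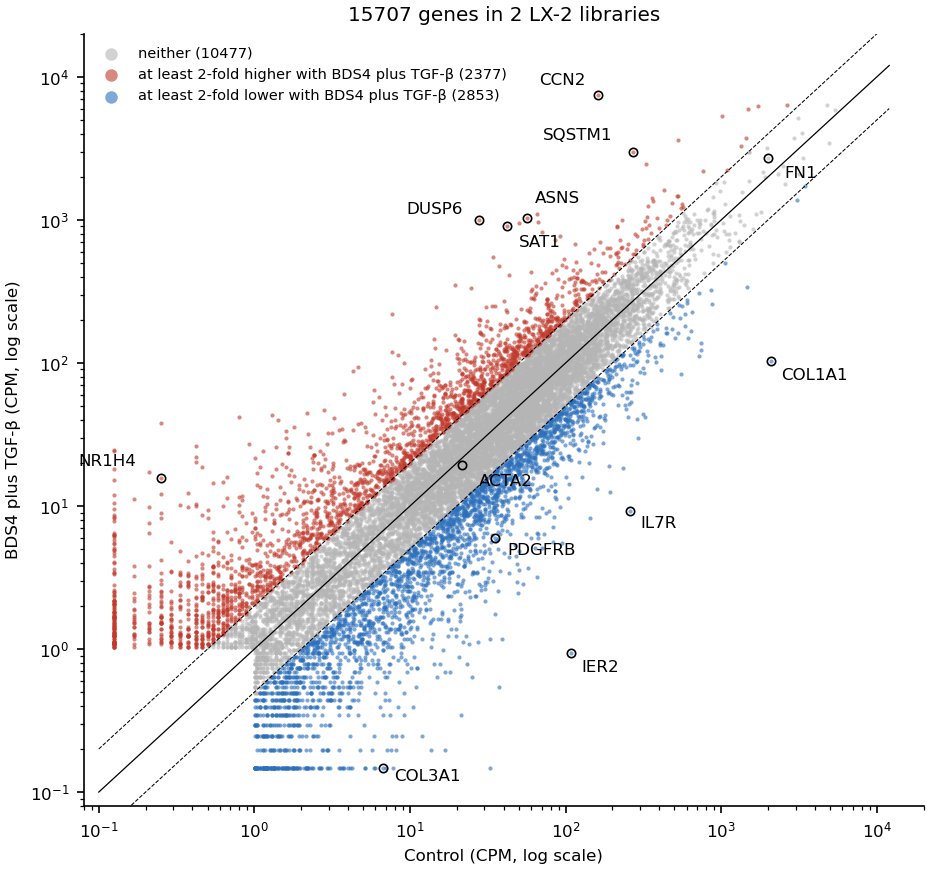
Level of each of the 15707 genes in BDS4 plus TGF-β cells (vertical axis, CPM, log scale) against control cells (horizontal axis, CPM, log scale), with 1 point a gene. The solid line marks equal levels and the dashed lines 2-fold, and genes under 3 counts are drawn at that floor. CCN2, SQSTM1 and DUSP6 lie far above the band, COL1A1, IL7R and IER2 far below it, and FN1 and ACTA2 inside it.

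Fibrillar collagen mRNA in cells given BDS4 plus TGF-β was well below the level of control cells, which were given no TGF-β. COL1A1, the main chain of type I collagen, stood at 102.6 CPM with BDS4 plus TGF-β, 2935 CPM with RVX-208 plus TGF-β, 4705 CPM with TGF-β and 2075 CPM in control, so the BDS4 library was lowest of the 4. It was 20.2-fold lower than control (19.4 to 21.1). COL3A1, the type III chain, had 2 counts with BDS4 plus TGF-β and 161 in control, 68.7-fold lower (18.7 to 572). COL1A2, the second chain of type I, had 4 and 71 counts, 15.2-fold lower (5.67 to 57.2). Of 23 collagen chains measured, out of 28 listed, 11 were lower, 1 was higher (COL14A1, 1.18 CPM against 0 counts) and 11 were not called, with a median log2 ratio of -0.92. In bulk RNA, fewer cells with a transcript and less of it per cell cannot be told apart.

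The lower collagens were of several kinds. COL5A2, which regulates fibril width, stood at 138.9 CPM with BDS4 plus TGF-β and 745.4 CPM in control (log2 ratio -2.42), and COL6A3, a chain of the beaded filaments around cells, at 8.73 and 51.6 CPM (-2.56). Among basement membrane chains COL4A2 was lower, with 308.6 CPM against 717.3 CPM (-1.22). COL4A1, its partner chain, was at 196.4 CPM with BDS4 plus TGF-β and 196.0 CPM in control, although it stood at 928 CPM in the TGF-β library. Both genes lie head to head on opposite strands. COL6A1 (186.8 and 201.0 CPM) and COL6A2 (279.7 and 328.9 CPM) were within 1.5-fold.

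Enzymes that fold, trim and crosslink collagen were lower in 6 of 18 cases and higher in 2, with a median log2 ratio of -0.33. SERPINH1, the collagen chaperone HSP47, stood at 41.8 CPM with BDS4 plus TGF-β and 250.5 CPM in control (log2 ratio -2.58). The crosslinking oxidases LOX (30.6 and 62.9 CPM), LOXL1 (24.7 and 62.7), LOXL3 and LOXL4 were all lower. The propeptide protease BMP1 was lower too, at 36.1 CPM against 89.7 CPM. P4HA1, a prolyl hydroxylase subunit, went the other way, at 180.8 CPM with BDS4 plus TGF-β against 67.8 CPM in control.

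Matrix glycoproteins and proteoglycans had 7 lower and 1 higher of 23 measured, with a median of -0.56. Tenascin C (TNC) stood at 84.0 CPM with BDS4 plus TGF-β, 845 CPM with RVX-208 plus TGF-β, 1030 CPM with TGF-β and 550.9 CPM in control, 2.71 lower than control on the log2 scale. SPARC, a collagen-binding glycoprotein, was at 166.3 and 640.5 CPM (log2 ratio -1.95) and thrombospondin 2 (THBS2) at 87.1 and 301.3 CPM (-1.79). Fibronectin (FN1) did not meet the rule. It stood at 2726 CPM with BDS4 plus TGF-β and 2001 CPM in control, a ratio of 1.36 (1.35 to 1.38), while the TGF-β library had 11140 CPM. CCN1, a matricellular protein, was the higher member, at 1237 CPM against 569.7 CPM.

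Matrix turnover genes moved in both directions. Of 14 metalloproteinases and inhibitors measured, 6 were higher and 5 lower. The interstitial collagenase MMP1 had 359.6 CPM with BDS4 plus TGF-β, 71.6 CPM with RVX-208 plus TGF-β, 26.8 CPM with TGF-β and 74.1 CPM in control, 4.85-fold higher than control (4.61 to 5.11). TIMP1, an inhibitor of these enzymes, was at 701.2 CPM against 167.2 CPM, 4.20-fold higher (4.05 to 4.34). The gelatinase MMP2 was at 8.78 CPM against 21.98 CPM and the membrane-bound MMP14, which activates it, at 30.5 CPM against 134.4 CPM (log2 ratios -1.32 and -2.14). In the plasmin system the urokinase gene PLAU was lower, at 12.8 CPM against 86.0 CPM. The tissue-type activator PLAT (431.7 and 179.1 CPM) and the inhibitor SERPINE2 (444.3 and 111.9 CPM) were higher.

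Contractile and cytoskeletal genes had 8 lower and 2 higher of 24 measured, with a median of -0.77. The lower members were the smooth muscle actin ACTG2, the myosin light chain kinase MYLK (62.9 CPM with BDS4 plus TGF-β and 262.0 CPM in control), the light chain MYL9 (206.1 and 539.3 CPM), CNN1, CNN2, TPM1 (262.3 and 601.6 CPM), TPM2 and TPM4. The stellate activation marker ACTA2 had a ratio of 0.893 (0.781 to 1.02), so its interval included no change. TAGLN was at 241.7 and 377.7 CPM, short of 2-fold. FLNC, an actin crosslinker, stood at 6262 CPM with BDS4 plus TGF-β and 1719 CPM in control, and at 1127 CPM and 1403 CPM in the TGF-β and RVX-208 libraries.

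**Figure D2:**
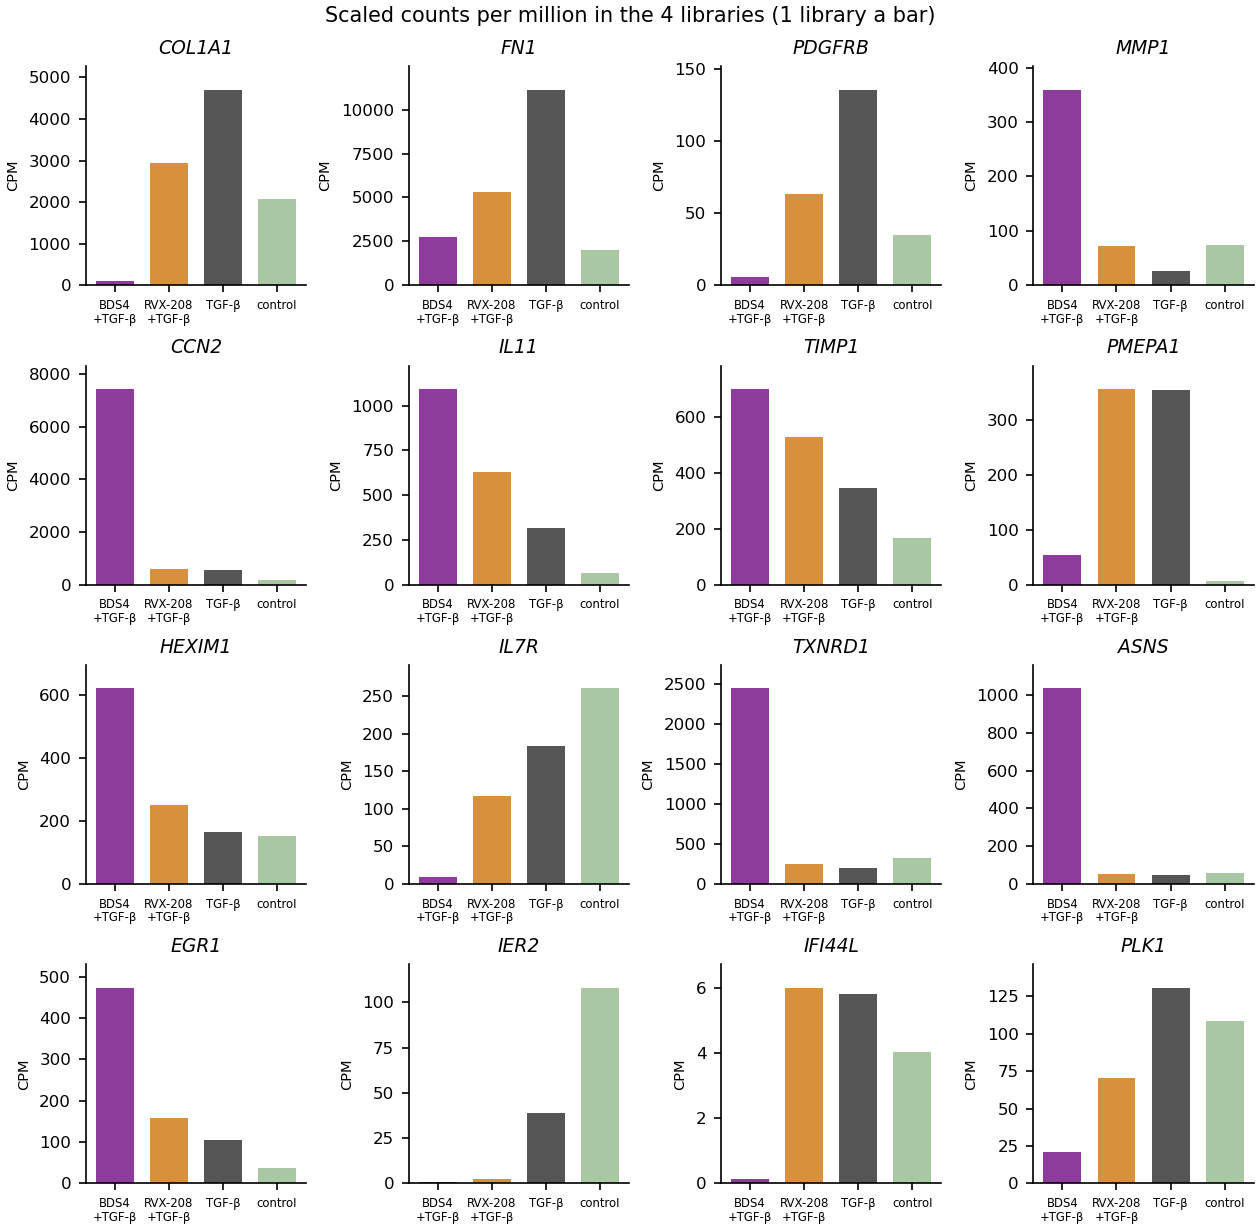
Scaled level (CPM, vertical axis from 0) of 16 genes in the 4 libraries, with 1 library a bar and no error bar, from left to right BDS4 plus TGF-β, RVX-208 plus TGF-β, TGF-β and control. COL1A1, PDGFRB, IER2 and PLK1 have their lowest bar in the BDS4 library, CCN2, HEXIM1, TXNRD1 and ASNS their highest there, and for PMEPA1 the BDS4 bar (53.3 CPM) stands between those of control (5.78 CPM) and TGF-β (355 CPM).

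Many direct targets of TGF-β and SMAD were above control in cells given BDS4 plus TGF-β, unlike the collagens. Of 29 measured targets 14 were higher and 5 lower, with a median log2 ratio of 0.87. CCN2, the matricellular growth factor CTGF, stood at 7432 CPM with BDS4 plus TGF-β, 611.9 CPM with RVX-208 plus TGF-β, 545.3 CPM with TGF-β and 161.4 CPM in control. That was 46.0-fold above control (44.6 to 47.5), and CCN2 had more counts than any other gene in the BDS4 library (0.701% of them). IL11, a profibrotic cytokine, was at 1092 CPM against 65.7 CPM, 16.6-fold higher (15.8 to 17.5), also above the TGF-β library (319 CPM).

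The feedback inhibitors of the pathway were among the higher targets. SMAD7, which blocks the receptor, stood at 76.99 CPM with BDS4 plus TGF-β and 25.1 CPM in control, and the SMAD corepressors SKIL and SKI at 105.0 against 25.9 CPM and 466.8 against 101.0 CPM. PMEPA1, which sequesters SMADs, was 9.22-fold higher than control (7.72 to 11.1). The AP-1 subunit JUNB was 7.38-fold higher (6.80 to 8.03) and the cell cycle inhibitor CDKN1A 5.13-fold (4.89 to 5.38). Lower targets were TGFB1I1 (21.3 and 105.3 CPM), NUAK1, ID1 and the latent TGF-β binding proteins LTBP2 (8.09 and 18.01 CPM) and LTBP3. For LTBP2 the TGF-β library stood at 212 CPM.

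Ligands, receptors and transducers of the family were lower in 10 of 20 cases and higher in 4 (median -0.81). TGFB1 itself was at 904.9 CPM with BDS4 plus TGF-β and 212.7 CPM in control, with 827 and 831 CPM in the TGF-β and RVX-208 libraries. TGFB2 stood at 19.4 CPM against 88.4 CPM, the type II receptor TGFBR2 at 60.7 CPM against 122.6 CPM, the coreceptor ENG at 32.8 CPM against 96.9 CPM and SMAD3 at 68.9 CPM against 220.5 CPM. SMAD2 was not called (80.0 and 92.7 CPM). In the BMP branch BMP6 (18.6 and 1.09 CPM) and the antagonist GREM1 (10.6 and 2.30 CPM) were higher, and ATOH8, SMAD9 and ID1 lower, out of 9 measured.

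Growth factors and receptors split into 11 higher and 10 lower of 31. The platelet-derived growth factor receptor PDGFRB, through which stellate cells receive their main mitogen, stood at 5.98 CPM with BDS4 plus TGF-β and 35.0 CPM in control, 5.85-fold lower (4.83 to 7.13), while the TGF-β library had 136 CPM. Among platelet-derived growth factor genes, PDGFB (1.91 and 10.8 CPM) and PDGFC (45.3 and 118.5 CPM) were lower, and PDGFD higher (14.9 and 2.35 CPM). AXL, a receptor kinase, and its ligand GAS6 were both lower, at 340.8 against 1473 CPM and 43.0 against 149.2 CPM. The higher members included the nerve growth factor receptor NGFR, at 553.1 CPM against 34.4 CPM, 16.1-fold (14.99 to 17.3), the VEGF receptor FLT1 (675.1 and 115.0 CPM) and the ligand KITLG (135.1 and 28.6 CPM).

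Genes of quiescent stellate cells did not move as a block. Of 18 measured, 7 were higher and 3 lower. PPARG, the nuclear receptor of the fat-storing state, had 4 counts with BDS4 plus TGF-β and 136 in control, 29.03-fold lower (11.1 to 108), and the lipid droplet gene PLIN2 was at 3.83 CPM against 17.3 CPM. For PPARG the TGF-β library was also below control, with 31 counts, as was the RVX-208 plus TGF-β library, with 20. Higher were CEBPA (11.4 and 1.84 CPM), BAMBI, a decoy receptor that dampens TGF-β signalling (41.4 and 10.6 CPM), GATA6 (7.21 and 2.76 CPM), LPL, REEP1, NGFR and CEBPB. Cholangiocyte and epithelial markers, of which 4 of 8 reached 1 CPM, were all lower. KRT8 stood at 59.9 CPM with BDS4 plus TGF-β and 201.2 CPM in control, KRT18 at 111.0 and 229.6 CPM, and EPCAM had 0 and 4 counts.

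**Figure D3:**
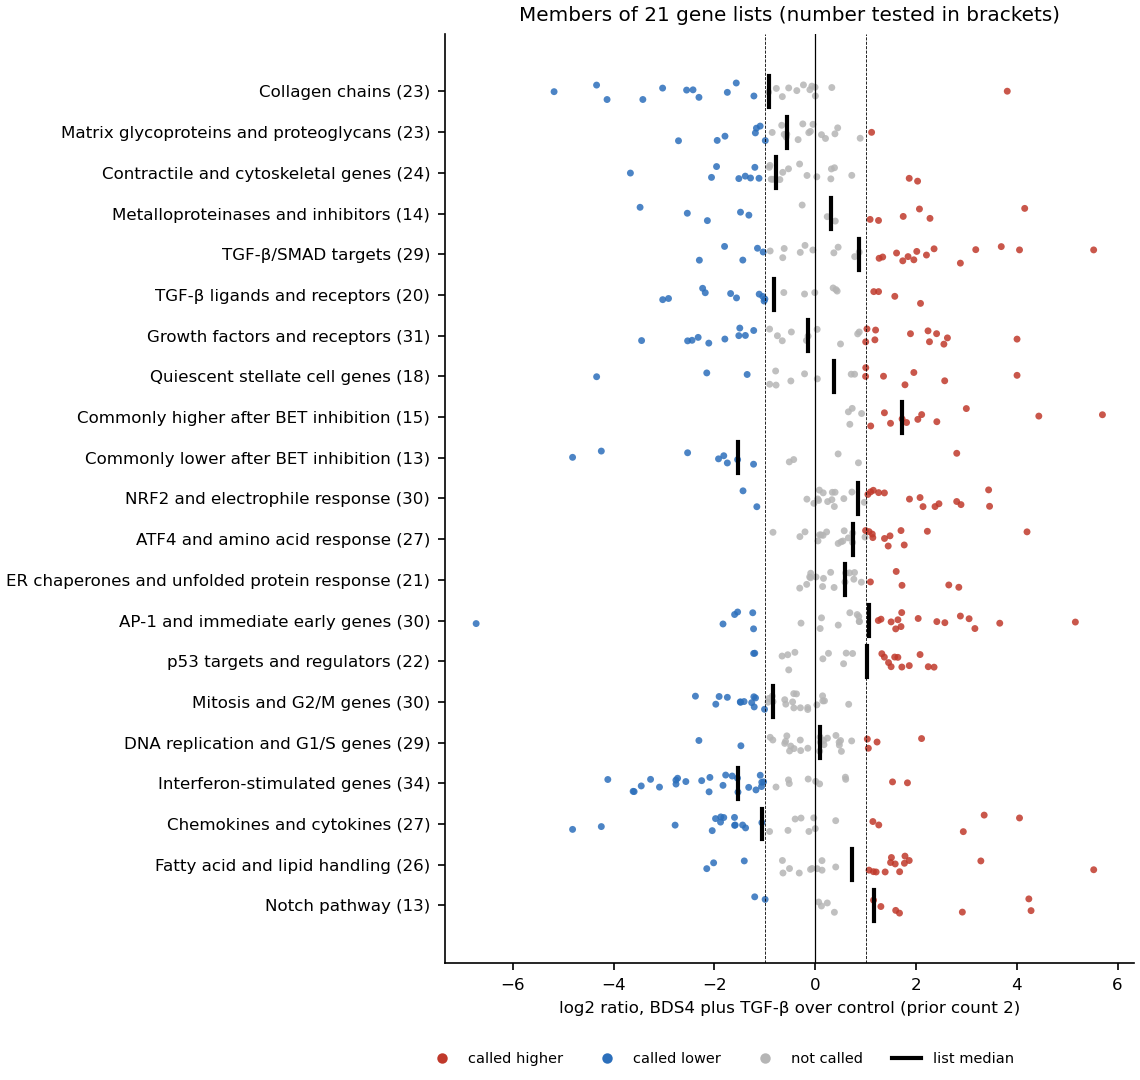
log2 ratio of BDS4 plus TGF-β over control (horizontal axis, prior count 2) for each measured member of 21 gene lists, 1 point a gene. Colour shows the call, the black bar the list median, the solid line no change and the dashed lines 2-fold. Collagens, interferon-stimulated genes and mitotic genes lie mostly left of 0 and genes commonly raised by BET inhibition, NRF2 and ATF4 targets mostly right of it.

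Genes that BET inhibitors commonly raise were higher in 11 of 15 cases and lower in 0, with a median log2 ratio of 1.72. HEXIM1, the inhibitor of P-TEFb and a common pharmacodynamic marker of this drug class, stood at 622.1 CPM with BDS4 plus TGF-β, 251.8 CPM with RVX-208 plus TGF-β, 166.4 CPM with TGF-β and 151.6 CPM in control. It was 4.10-fold higher than control (3.96 to 4.26). SERPINI1 (neuroserpin) was at 26.3 CPM against 0.419 CPM and the polyamine acetyltransferase SAT1 at 906.4 CPM against 41.8 CPM, 21.7-fold (20.4 to 23.1). The flow-responsive factor KLF2 was at 174.6 CPM against 32.7 CPM.

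Genes that these drugs commonly lower were lower in 8 of 13 measured cases and higher in 1, with a median of -1.54. The interleukin 7 receptor IL7R stood at 9.17 CPM with BDS4 plus TGF-β, 117 CPM with RVX-208 plus TGF-β, 183 CPM with TGF-β and 260.2 CPM in control, 28.4-fold lower than control (24.5 to 33.0). The chemokine CXCL12 was at 1.77 CPM against 35.0 CPM, the kinase CDK6 at 21.5 CPM against 81.6 CPM and MYC at 12.6 CPM against 36.6 CPM, 2.92-fold lower (2.54 to 3.37). For MYC the TGF-β library was already at 16.8 CPM. The exception was NFKBIZ, at 95.8 CPM against 13.6 CPM. Among genes of the BET family, BRD3 was at 59.7 and 41.6 CPM and BRD2 at 81.4 and 37.9 CPM, a call that ended with total-count scaling (log2 ratio 0.93). The elongation factor AFF4 was higher (554.1 and 216.8 CPM) and HEXIM2 lower (1.57 and 10.4 CPM).

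Nearly every histone cluster gene was higher. These genes make the replication-dependent histones, whose mRNAs mostly end in a stem-loop without a poly(A) tail. The family was gathered by symbol after values were seen. Of 42 measured protein-coding members 40 were higher and 0 lower, with a median log2 ratio of 2.69, and their summed level was 2161 CPM with BDS4 plus TGF-β, 1032 CPM with RVX-208 plus TGF-β, 507.8 CPM with TGF-β and 434.9 CPM in control. H1-2, a linker histone, stood at 386.9 CPM against 89.4 CPM, H4C8 at 335.0 CPM against 24.6 CPM and H2BC5 at 247.6 CPM against 30.9 CPM. Of 11 other histone genes 2 were higher and 1 lower. The variants H2AZ1 (842.2 and 637.6 CPM) and H2AX (615.8 and 405.8 CPM) were not called, and MACROH2A2 was lower (3.38 and 25.6 CPM). H4C8 was also in a list of replication-independent and polyadenylated histone genes, with 10 higher and 0 lower of 19 and a median of 1.49. That list shares cluster genes such as H4C8 with the family above, so its counts are not separate from those of the family. Whether polyadenylated histone mRNAs were higher as such was not tested.

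Several RNAs of classes without a poly(A) tail also had more counts in the BDS4 library, though not every class did. RN7SK, the RNA of the P-TEFb inhibitory complex, had 118 counts with BDS4 plus TGF-β and 21 in control, and a further locus named 7SK had 113 and 0. Both overlap other same-strand exons, RN7SK over 100% and the further locus over 99.1% of its exon bases. Of 18 small nucleolar RNA genes measured 9 were higher and 0 lower. The miscellaneous RNA class, which holds RN7SL2, had 6 higher and 0 lower of 7. Genes annotated as microRNA had 5 higher and 1 lower of 8. Of 12 mitochondrial tRNA genes 2 were higher and 1 lower, with a median log2 ratio of 0.04. RN7SL2, of the signal recognition particle, was at 62.3 CPM against 26.6 CPM, but at 98.7 CPM in the TGF-β library. The part of poly(A) selection or RNA quality in these counts and in those of the histone genes was not tested.

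Several lists of stress response genes had more higher than lower members. NRF2 is the transcription factor that KEAP1 releases when electrophiles modify its cysteines, and it binds antioxidant response elements. Of 30 measured NRF2 and electrophile response genes 14 were higher and 2 lower (ABCC3 and TRIM16L), with a median of 0.85. TXNRD1, thioredoxin reductase, stood at 2449 CPM with BDS4 plus TGF-β, 249.1 CPM with RVX-208 plus TGF-β, 194.2 CPM with TGF-β and 329.8 CPM in control, 7.43-fold higher than control (7.25 to 7.61). The autophagy receptor SQSTM1 was at 2973 CPM against 270.3 CPM, a log2 ratio of 3.46 (3.42 to 3.50), and OSGIN1 at 65.0 CPM against 5.90 CPM.

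Among the higher NRF2 list members were genes of glutathione synthesis, picked after their values were seen. The cystine transporter SLC7A11 stood at 423.8 CPM with BDS4 plus TGF-β and 81.5 CPM in control, and the subunits of glutamate-cysteine ligase, GCLM and GCLC, at 278.0 against 63.1 CPM and 178.0 against 42.0 CPM. The ferritin light chain FTL was at 3719 CPM against 1436 CPM and heme oxygenase HMOX1 at 69.2 CPM against 28.9 CPM. NQO1, often used as a marker of this response, was at 195.6 CPM against 175.2 CPM and was not called, nor was NFE2L2, which encodes NRF2. SRXN1 was 5.49-fold higher, but 85.1% of its exon bases are shared with another gene on the same strand.

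ATF4, the transcription factor of the amino acid and integrated stress response, stood at 158.4 CPM with BDS4 plus TGF-β and 61.0 CPM in control. Of 27 measured genes of that response 11 were higher and 0 lower, with a median of 0.74. ASNS, asparagine synthetase, was at 1034 CPM against 56.1 CPM, 18.4-fold (17.4 to 19.5), and 44.6% of its exon sequence is common to another gene. DDIT3 (CHOP) was at 143.9 CPM against 30.7 CPM, the glutathione-degrading enzyme CHAC1 at 80.5 CPM against 23.6 CPM and the serine synthesis enzyme PSAT1 at 586.3 CPM against 209.6 CPM. TRIB3, also a target, was not called (50.7 and 58.3 CPM).

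In the unfolded protein response 5 of 21 genes were higher and 0 lower. They were the cochaperones DNAJB9 (91.1 CPM with BDS4 plus TGF-β and 12.6 CPM in control) and DNAJC3, the sensor kinase ERN1 (196.0 and 31.2 CPM), HERPUD1 and SYVN1. The main chaperone of the endoplasmic reticulum, HSPA5, was at 838.8 and 757.6 CPM and was not called. Cytosolic heat shock genes had 3 higher of 15, DNAJB1 (482.6 and 95.4 CPM), HSP90AA1 (3268 and 1335 CPM) and HSPA1B, and 2 lower, the small heat shock proteins HSPB1 (35.8 and 166.1 CPM) and HSPB8. Those counts lie close to the shares of all genes (15.1% higher and 18.2% lower). Metallothionein and zinc genes went mostly the other way by number, with 1 higher and 4 lower of 8 measured and a median of -0.52. Their summed level was nevertheless above control, at 5535 CPM with BDS4 plus TGF-β and 1388 CPM in control. MT2A was higher, at 5281 CPM against 1012 CPM, and MT1E, MT1F and MT1M were among the lower.

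Promoters of 2 higher genes from each of the NRF2 and ATF4 lists are shown because they hold the element those factors are known to bind. They come from RefSeq on GRCh38.p14 and run from 250 bases before to 50 after the annotated start, 5′ to 3′ on the gene's strand. Capitals mark the antioxidant response element core (TGACNNNGC) in TXNRD1 and GCLM and the amino acid response element (TGATGNAA) in ASNS and CHAC1, searched on both strands.
TXNRD1 promoter (chr12:104215529-104215828, plus strand): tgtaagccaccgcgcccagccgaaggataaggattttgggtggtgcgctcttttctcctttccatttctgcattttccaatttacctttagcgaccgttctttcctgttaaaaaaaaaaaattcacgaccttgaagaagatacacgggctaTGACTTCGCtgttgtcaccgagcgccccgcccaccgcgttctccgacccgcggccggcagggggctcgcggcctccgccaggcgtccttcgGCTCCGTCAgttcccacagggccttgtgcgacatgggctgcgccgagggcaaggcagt
GCLM promoter (chr1:93909381-93909680, minus strand): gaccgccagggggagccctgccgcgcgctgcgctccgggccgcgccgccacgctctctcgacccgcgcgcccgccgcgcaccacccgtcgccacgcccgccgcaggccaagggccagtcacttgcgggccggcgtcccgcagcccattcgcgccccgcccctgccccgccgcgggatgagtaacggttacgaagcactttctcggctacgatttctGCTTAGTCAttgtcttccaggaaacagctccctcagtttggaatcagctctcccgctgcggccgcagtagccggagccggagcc
ASNS promoter (chr7:97872359-97872658, minus strand): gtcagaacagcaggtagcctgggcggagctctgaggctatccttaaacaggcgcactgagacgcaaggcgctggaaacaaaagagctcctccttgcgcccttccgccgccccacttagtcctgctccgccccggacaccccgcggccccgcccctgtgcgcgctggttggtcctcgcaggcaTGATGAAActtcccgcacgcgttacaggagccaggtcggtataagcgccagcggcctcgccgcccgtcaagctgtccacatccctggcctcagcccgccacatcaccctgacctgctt
CHAC1 promoter (chr15:40953221-40953520, plus strand): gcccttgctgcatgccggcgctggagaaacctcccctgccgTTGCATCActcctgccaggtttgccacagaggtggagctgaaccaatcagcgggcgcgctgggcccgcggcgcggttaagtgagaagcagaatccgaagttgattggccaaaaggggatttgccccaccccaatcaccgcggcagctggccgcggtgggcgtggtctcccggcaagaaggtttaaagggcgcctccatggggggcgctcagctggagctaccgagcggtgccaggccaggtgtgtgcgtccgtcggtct

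TXNRD1 holds a pair of antioxidant cores, on opposite strands, and the other 3 promoters hold 1 match each. The antioxidant core was in 13.6% of 27305 promoters, in 4 of the 10 higher list members with a promoter entry and in 2 of the 12 uncalled ones. It was in 15% of the genes compared and 16.2% of all higher genes. The amino acid element was in 3.67% of all promoters, in 4 of 11 higher and 3 of 14 uncalled members. Its share was 1.67% of the genes compared and 2.2% of all higher genes. Elements of other lists were searched too. The SMAD palindrome (GTCTAGAC) was in 0 of 23 TGF-β/SMAD targets. The AP-1 site (TGANTCA) was in 0 of 11 higher and 1 of 3 lower immediate early genes. The sterol element (TCACNCCAC) was in 0 of 4 higher and 1 of 14 uncalled cholesterol genes. Entries were found for 11032 of the genes compared (70.2%). A match describes the letters only, and elements outside this window were not searched.

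Interferon-stimulated genes had the largest share of lower members among the 21 lists plotted by members. Of 34 measured 24 were lower and 2 higher, with a median of -1.54. IFI44L had 3 counts with BDS4 plus TGF-β and 96 in control, 27.3-fold lower (9.08 to 135). The antiviral sensor gene OAS2 stood at 1.03 CPM with BDS4 plus TGF-β and 13.6 CPM in control, the ubiquitin-like ligase HERC5 at 0.883 and 10.5 CPM, the GTPase MX1 at 2.70 and 16.4 CPM, the antiviral enzyme RSAD2 at 8.63 and 41.5 CPM and IFIT1 at 21.9 and 63.4 CPM. TGF-β alone stood above control for several of these genes, as in RSAD2 with 91.4 CPM. Among the higher members was the regulator IRF7, at 33.9 CPM against 9.46 CPM. IFIT2 was level (69.4 and 69.0 CPM).

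The promoters of IFI44L and HERC5 are shown because each repeats the interferon-stimulated response element core (GAAA, any 2 bases, then GAAA), bound by STAT and IRF complexes. Capitals mark the core on either strand.
IFI44L promoter (chr1:78620198-78620497, plus strand): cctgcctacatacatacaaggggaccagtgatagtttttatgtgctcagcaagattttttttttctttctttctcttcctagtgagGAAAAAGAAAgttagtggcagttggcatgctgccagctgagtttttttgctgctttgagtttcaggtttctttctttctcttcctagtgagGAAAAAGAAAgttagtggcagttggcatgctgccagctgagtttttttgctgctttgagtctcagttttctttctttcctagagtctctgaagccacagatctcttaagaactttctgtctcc
HERC5 promoter (chr4:88456869-88457168, plus strand): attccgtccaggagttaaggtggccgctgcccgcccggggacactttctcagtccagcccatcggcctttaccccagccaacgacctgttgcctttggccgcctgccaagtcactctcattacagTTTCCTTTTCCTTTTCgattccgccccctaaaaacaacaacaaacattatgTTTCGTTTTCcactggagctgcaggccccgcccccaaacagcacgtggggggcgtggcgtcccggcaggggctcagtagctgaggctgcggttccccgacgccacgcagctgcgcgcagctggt

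A script found 2 cores in the IFI44L promoter and 3 in that of HERC5, where 2 overlap. The core was in 3.65% of all promoters, in 13 of 19 lower list members with an entry and in 4 of 7 uncalled members, more than 1 in 2 of both. It was in 2.83% of the genes compared and 3.63% of all lower genes.

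**Figure D4:**
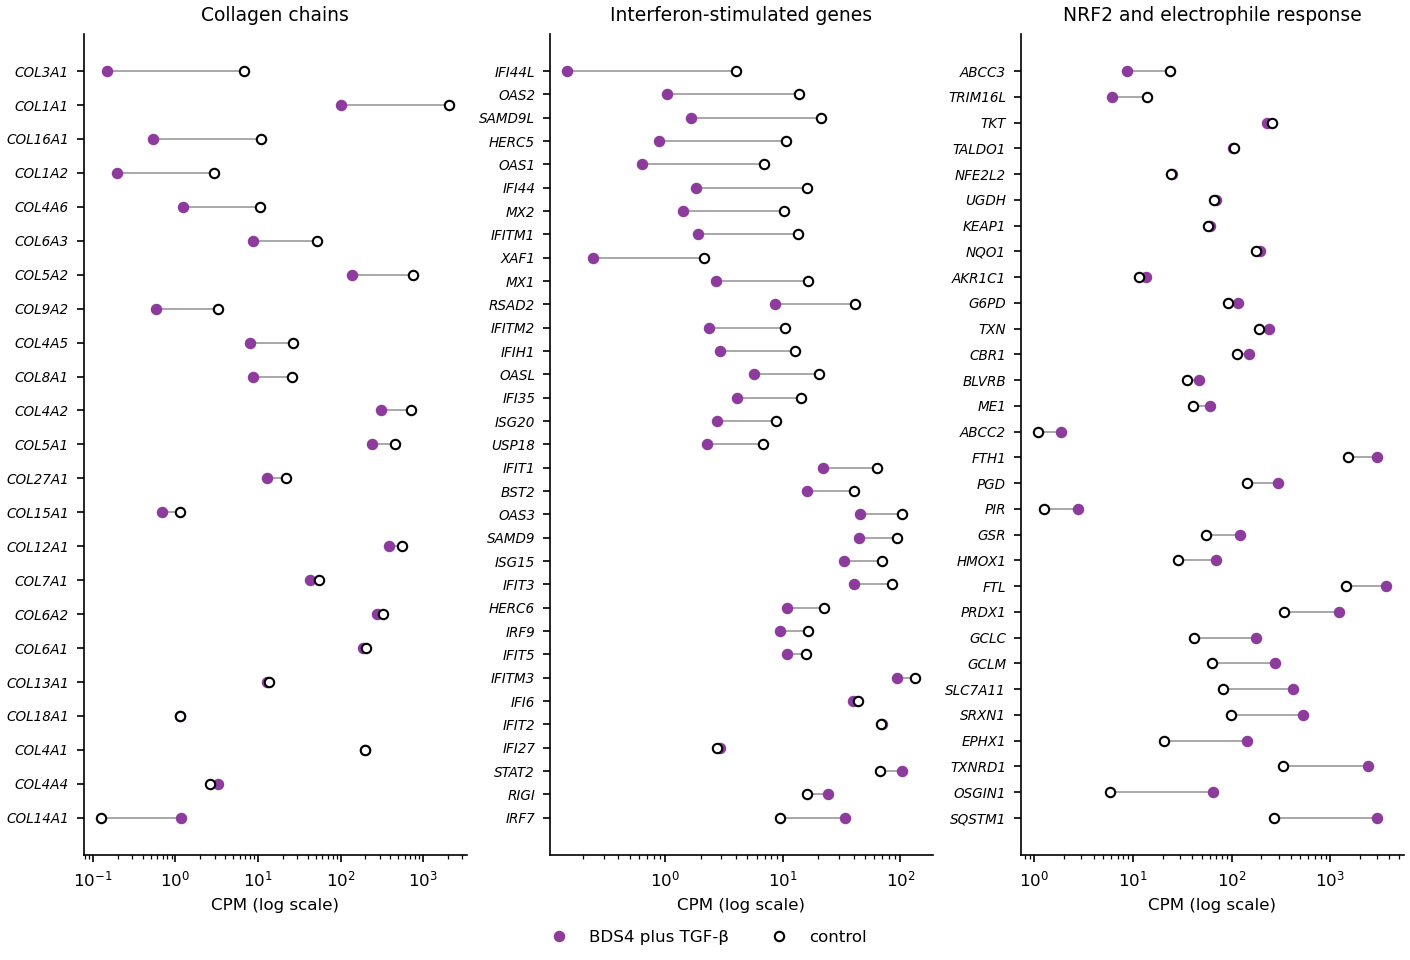
Level (CPM, log scale) of measured members of 3 lists in BDS4 plus TGF-β cells (filled) and control cells (open), 1 gene a row, ordered by the log2 ratio. Collagens and interferon-stimulated genes have the filled point mostly on the left, and NRF2 and electrophile response genes mostly on the right, with SQSTM1 at the bottom and ABCC3 at the top.

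Chemokines and cytokines were lower in 14 of 27 measured cases and higher in 5. IL6 stood at 1.47 CPM with BDS4 plus TGF-β and 5.40 CPM in control, the macrophage growth factor CSF1 at 8.09 and 30.0 CPM and the interferon-induced chemokine CXCL10 at 0.441 and 3.56 CPM. The neutrophil chemokines CXCL8 (105.5 and 13.7 CPM) and CXCL1 (79.5 and 7.71 CPM) were higher, with IL11, IL6ST and CSF3. In antigen presentation B2M (613.7 and 283.7 CPM) and HLA-C were higher, and NLRC5, PSMB9, PSMB10 and ERAP2 lower, of 11 measured. Summing overlapping genes ended the call of HLA-C.

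NF-κB subunits and feedback targets had 4 higher and 3 lower of 16. ICAM1, an adhesion molecule for leukocytes, stood at 116.2 CPM with BDS4 plus TGF-β and 44.6 CPM in control, and the mitochondrial superoxide dismutase SOD2 at 114.5 and 31.5 CPM. VCAM1 had 7 and 52 counts and was lower. The subunits RELA (136.4 and 145.5 CPM) and NFKB1 (31.5 and 59.5 CPM) were not called.

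Immediate early genes and AP-1 factors had 15 higher and 6 lower of 30, with a median of 1.06. DUSP6, the phosphatase that ERK signalling induces against itself, stood at 999.3 CPM with BDS4 plus TGF-β, 143 CPM with RVX-208 plus TGF-β, 87.9 CPM with TGF-β and 27.9 CPM in control, 35.9-fold above control (33.2 to 38.8). EGR1 was at 473.5 CPM against 37.4 CPM and FOS at 22.6 CPM against 2.43 CPM, while JUN was level (431.7 and 403.1 CPM). IER2 had 19 counts with BDS4 plus TGF-β and 2582 in control, 116-fold lower (74.2 to 193), the largest fall among all protein-coding genes ranked. It was also low with RVX-208 plus TGF-β, at 2.50 CPM. The AP-1 subunits FOSL1 (82.8 and 193.3 CPM) and FOSL2 (132.5 and 401.8 CPM) were lower.

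Mitotic genes were lower in part, while calls among replication genes were few. Of 30 mitosis and G2/M genes 12 were lower and 0 higher, with a median of -0.84. The kinases PLK1 (20.8 CPM with BDS4 plus TGF-β and 108.3 CPM in control) and AURKA (62.5 and 245.4 CPM), the activator CDC20 (51.8 and 173.7 CPM) and cyclin B1, CCNB1 (173.6 and 484.6 CPM), were lower, and MKI67 (700.1 and 630.1 CPM) and CDK1 (176.7 and 155.5 CPM) were not called. Of 29 replication and G1/S genes 4 were higher and 2 lower, a higher share no larger than the 15.1% of all genes. RRM2, a subunit of ribonucleotide reductase, was at 999.6 CPM against 231.6 CPM, and the helicase subunits MCM5 (51.7 and 256.1 CPM) and MCM2 (101.4 and 281.7 CPM) were the lower ones.

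Targets and regulators of p53 were more often higher than lower. Of 22 measured p53 targets and regulators 11 were higher and 2 lower, with a median of 1.03. GADD45A stood at 634.2 CPM with BDS4 plus TGF-β and 192.6 CPM in control, the death receptor TNFRSF10B at 449.0 and 123.1 CPM, the proapoptotic PMAIP1 at 156.4 and 50.1 CPM and TP53INP1 at 57.4 and 12.1 CPM. MDM2 was not called (77.8 and 64.8 CPM) and BAX was lower (54.5 and 125.3 CPM). D cyclin, CDK4/6 and CDK inhibitor genes had 4 higher and 4 lower of 13. CDK6 and CDK4 (103.6 and 208.8 CPM) were lower and the inhibitors CDKN1A, CDKN2B, CDKN1C and CDKN2D higher, with CDKN2A and CDKN2C lower.

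Lipid genes were higher in 13 of 26 measured cases and lower in 3, with a median of 0.74 that became 0.31 without the filter on low counts. The synthesis enzymes FASN (794.8 CPM with BDS4 plus TGF-β and 278.6 CPM in control) and SCD (1284 and 555.2 CPM) and the lipases PNPLA2 (298.9 and 87.6 CPM) and LIPA (172.5 and 57.4 CPM) were higher. NR1H4, the bile acid receptor FXR, had 319 counts against 6, 62.3-fold higher (28.3 to 171). Cholesterol synthesis genes had 5 higher and 0 lower of 24. INSIG1, the sterol-regulated brake of the pathway, was at 410.8 CPM against 43.0 CPM, and SQLE at 231.5 CPM against 81.2 CPM. FDPS (79.0 and 74.95 CPM) and SREBF2 (175.6 and 187.2 CPM) were level, while the TGF-β library had 200 and 326 CPM.

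Nuclear receptors and bile acid genes were lower in 8 of 21 measured cases and higher in 4, with a median of -0.55 that became -0.06 among genes with at least 5 CPM. NR2F2 (COUP-TFII) stood at 257.5 CPM with BDS4 plus TGF-β and 866.7 CPM in control, the glucocorticoid receptor NR3C1 at 49.97 and 144.4 CPM and the retinoid receptors RARG (4.07 and 24.4 CPM) and RXRA (19.6 and 50.5 CPM) were lower as well. The vitamin D receptor VDR was higher, at 158.4 CPM against 28.6 CPM, with NR4A2, NR4A3 and NR1H4. Of 23 integrin and focal adhesion genes 4 were lower and 2 higher, neither share above that of all genes (18.2% and 15.1%). The collagen-binding integrin chain ITGA2 was at 285.3 CPM against 59.6 CPM, and the fibronectin-binding ITGA5 at 129.5 CPM against 301.2 CPM.

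Lysosome and autophagy genes had 9 higher and 1 lower (TFEB, 1.52 and 6.62 CPM) of 30. The autophagosome gene MAP1LC3B stood at 280.8 CPM with BDS4 plus TGF-β and 75.6 CPM in control, the cholesterol exporter NPC1 at 369.4 and 130.7 CPM and ULK1 at 128.8 and 55.1 CPM. In polyamine metabolism, with 4 higher and 1 lower of 10, beside SAT1, the synthesis enzyme ODC1 (1346 and 363.3 CPM) and the oxidase SMOX (83.2 and 21.5 CPM) were higher. Of 27 glycolysis and hypoxia genes 4 were higher, NDRG1 (249.5 and 33.8 CPM), SLC2A3, VEGFA and EGLN3, and 0 lower, so the higher share was close to the 15.1% of all genes. Of 18 long non-coding RNAs 9 were higher and 3 lower. NEAT1 (968.3 and 66.8 CPM) and KCNQ1OT1 (44.5 and 2.18 CPM) were higher, and MALAT1, also a nuclear RNA, was at 69.0 and 40.9 CPM and was not called. Mitochondrial mRNAs had 0 calls in 13.

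Target genes of YAP and TAZ, the mechanosensitive partners of TEAD factors, went in both directions. Of 25 measured 6 were higher and 7 lower. ANKRD1 stood at 945.5 CPM with BDS4 plus TGF-β and 50.2 CPM in control, next to CCN2 and CCN1, and AJUBA (42.1 and 324.9 CPM), MYOF (29.8 and 292.4 CPM) and YAP1 itself (115.6 and 285.4 CPM) were lower. Notch genes were higher in 7 of 13 cases and lower in 2, among them the repressor HEY2 (34 counts and 0), the ligand DLL4 (35.6 and 1.801 CPM) and NRARP (12.3 and 1.55 CPM). JAG1, at 49.0 CPM against 21.9 CPM, was well under the TGF-β library (358 CPM). Wnt genes had 7 higher and 6 lower of 25, with WNT5A (7.601 and 45.5 CPM), FZD2 (20.0 and 140.7 CPM) and the antagonist DKK1 (149.9 and 612.6 CPM) among the lower.

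In order of the interval bound closest to 1, the 15 largest rises among protein-coding genes began with ISY1-RAB43, a read-through gene whose exons are all shared with its neighbours. It had 496 counts against 0, and its difference vanished when overlapping genes were summed (log2 ratio -0.06). The TGF-β library held 459 counts of ISY1-RAB43 and the RVX-208 plus TGF-β library 0. VWA5B2 had 372 counts with BDS4 plus TGF-β and 1 in control, 436-fold (77.7 to 17250). UNC5B, a netrin receptor, stood at 41.6 CPM against 0.796 CPM, 52.3-fold (33.3 to 87.2), PLCL1, a phospholipase C-like protein, at 12.1 CPM against 0.251 CPM and DNAH3, a dynein heavy chain, at 27.3 CPM against 0.921 CPM. AGPAT1, an acyltransferase of phospholipid synthesis, had 11.1 CPM with BDS4 plus TGF-β, 10.9 CPM with RVX-208 plus TGF-β, 0.0906 CPM with TGF-β and 0.168 CPM in control. The synaptic gene ARC and ZNF8-ERVK3-1, which shares 65.4% of its exon bases and was no longer called once overlapping genes were summed, were the other members not yet named.

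After IER2, the 15 largest falls included SZRD1, with 0.539 CPM with BDS4 plus TGF-β, 129 CPM with RVX-208 plus TGF-β, 104 CPM with TGF-β and 37.4 CPM in control. The neuronal adhesion genes SLITRK5 (0.637 and 24.9 CPM) and LRFN1 (0.245 and 12.02 CPM), the sarcomere protein gene MYPN (1.18 and 38.8 CPM), PLAC8 (1.18 and 32.5 CPM), PLEKHG4 (0.785 and 23.3 CPM), the NMDA receptor subunit GRIN2D (0.686 and 18.2 CPM), CCDC9B (1.13 and 27.2 CPM) and the chromatin protein gene JADE2 (8.24 and 143.2 CPM) were also among them. PTP4A1 (3.19 and 65.8 CPM), which shares 79.0% of its exon bases, turned to a log2 ratio of 1.26 when overlapping genes were summed. BIVM-ERCC5, a read-through gene, then lost its call. It had 14 counts with BDS4 plus TGF-β and 400 in control, but also only 7 with TGF-β and 4 with RVX-208 plus TGF-β. Of all 5230 called genes 880 have exon bases in common with a same-strand gene, and 383 of them lost or changed the call on summing.

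The ratio of BDS4 plus TGF-β to control and that of RVX-208 plus TGF-β to TGF-β have no library in common. Of 15230 genes in the RVX-208 comparison 2.83% were higher and 5.19% lower by the same rule, 8.02% together. Over the 14838 genes measured in both, 206 were higher in both, 10.7% of the 1933 higher with BDS4 plus TGF-β and 52.3% of the 394 higher with RVX-208. For lower genes it was 380, 14.4% of 2647 and 58.2% of 653. In opposite directions 55 genes were higher with BDS4 plus TGF-β and lower with RVX-208, 2.8% of the 1933 and 8.4% of the 653. The other way it was 41, 1.5% of the 2647 and 10.4% of the 394. For reference, 1933 of the 14838 genes measured in both were higher with BDS4 plus TGF-β and 2647 lower. Over the larger set of 15707 genes compared with control these shares were 15.1% and 18.2%. Across 10645 genes with at least 5 CPM in every library, Pearson's r of the log2 ratios was 0.42 and Spearman's coefficient 0.44, as a description of 4 libraries in which genes are not independent replicates.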

How the data were processed

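RNA sequencing of LX-2 cells gave 4 libraries, 1 per group, of which BDS4 plus TGF-β was compared with control. Per the series' design text, a stranded mRNA kit and paired-end sequencing were used. TopHat2 2.0.6, CASAVA 1.8 and the build GRCh38 are named in the submitters' processing notes. The authors deposited raw counts for 63241 gene IDs (20601 without a symbol). They also deposited FPKM, made with StringTie 1.3.0 per the series' design text. For the counting program, annotation release and strand setting the sources used here give nothing, so reads of overlapping genes may be divided in ways that cannot be checked. In 9069 genes with more than 200 counts, FPKM followed count over library total with 1 length a gene to within 0.00042%. FPKM were used for this check alone. Sample descriptions tied the columns to the groups, since the code over the BDS4 column leaves the compound unnamed.

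TMM scaling (edgeR 4.0.16, R 4.3.3) used factors of 0.943 (BDS4 plus TGF-β), 0.989 (RVX-208 plus TGF-β), 1.01 (TGF-β) and 1.06 (control), taken over genes with at least 1 CPM in any library. A floor of 3 counts stood for 0.147 CPM in the BDS4 library and 0.126 CPM in the control. The 95% interval of a ratio is conditional and exact (Clopper-Pearson). It covers counting error only, as do the floors, and reads without molecular identifiers are not independent molecules. List medians use a prior count of 2. GENCODE 29 gave biotypes and exon overlaps for 15148 of the 15707 genes compared, and RefSeq gave promoters. Python 3.11.15, numpy 2.4.6, scipy 1.17.1, pandas 2.3.3 and matplotlib 3.10.9 were used. The rules were tested on simulated data with counting error only. That simulation had no variation between cultures, so it cannot show how often such calls arise between cultures treated alike. A few genes that entered the counts are not reported here by name.

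The comparison, the members and the 47 gene lists were chosen with earlier results of these data known. Named genes are the 15 largest rises and 15 largest falls among protein-coding genes with at least 10 CPM in the higher library, ranked by the interval bound closest to 1. To these were added up to 4 list members a list, by size of ratio, and 29 genes given by name. Other members serve as examples and were picked once values were known. Alternatives were other scalings (with DESeq2 1.42.0 size factors as 1 of them), other filters and prior counts, a stricter rule of size and sums over overlapping genes.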

Additional observations from a re-analysis of the deposited data

How the results depend on the processing

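No paired analysis was possible because each group is 1 library and no test was run, and for the same reason no replicate could be left out. The higher genes numbered 1632 to 3180 and the lower genes 1972 to 3552 under the other scalings, filters and sums over overlapping genes, all within 1.5 times the counts reported. Requiring the interval bound itself to reach 2-fold left 1579 higher genes, beyond 1.5 times, and 1903 lower. TMM over all genes, an alternative added after the data were seen, gave 2156 and 3076. Of 198 named genes 189 kept their call under every scaling run, on summing overlapping genes and with a prior count of 0.5. On summing, ISY1-RAB43 turned to -0.0585 and PTP4A1 to 1.26 (log2 ratio), and ZNF8-ERVK3-1, BIVM-ERCC5, HLA-C and TM7SF2 lost their calls. Total-count scaling ended the call of BRD2 and made calls of ADGRE1 and CD68.

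Some list medians changed sign. Using means instead, this held for BMP and ID genes (-0.15), growth factors (0.0417), NF-κB genes (0.16) and replication genes (-0.0002). With total-count scaling it held for BMP and ID genes (-0.0844), replication genes (-0.0722) and YAP targets (-0.0593), without the filter for growth factors (0.0392), stellate markers (0.15) and NF-κB genes (0.13), at 5 CPM for MHC class I genes (0.0937) and CDK genes (-0.0302), and on summing for the 1 hepatocyte marker (0.0098). Without a change of sign, medians moved by over 0.25 for 9 lists with means, 9 without the filter, 6 at 5 CPM and 1 with total-count scaling. Those of nuclear receptors (-0.55) became -0.20 as a mean and -0.06 at 5 CPM, those of lipid genes (0.74) 0.31 without the filter and 1.07 at 5 CPM, and those of Notch genes (1.16) 0.50 and 0.38 under these filters. What caused these changes was not tested. With 1 library a group, depth limits low genes most, and no setting stands in for replicate cultures.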

Other observations

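Homeobox, keratin and calcium-binding protein genes, gathered by symbol after values were seen, were, apart from KRT8 and KRT18, not described above. Of 34 HOX genes measured, which set position along the body axis of the embryo, 24 were lower with BDS4 plus TGF-β and 2 higher, with a median log2 ratio of -1.52, beside 18.2% lower among all genes compared. HOXB2 stood at 17.02 CPM with BDS4 plus TGF-β, 102.5 CPM with RVX-208 plus TGF-β, 127.9 CPM with TGF-β and 73.8 CPM in control. HOXB7 was at 13.98 CPM against 54.7 CPM, and lower members came from all 4 clusters (HOXA7, HOXB2, HOXC8, HOXD10). HOXA5 was higher (7.94 and 2.43 CPM). Several HOX genes overlap an antisense gene, and the sources used here give no strand setting for the counting.

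Of 10 keratins 9 were lower and 0 higher. KRT81 stood at 13.0 CPM with BDS4 plus TGF-β and 159.3 CPM in control, and KRT80 at 2.45 and 49.1 CPM. Annexins had 6 lower and 1 higher of 10, with ANXA1 at 111.7 CPM against 410.8 CPM and ANXA5 at 1062 CPM against 470.0 CPM. Of 7 S100 genes 5 were lower, including S100A6 (61.3 and 133.7 CPM). Ephrins and their receptors had 6 higher and 1 lower of 15, with EFNB2 at 345.8 CPM against 64.7 CPM. Cytosolic ribosomal protein genes held together, with 0 higher and 1 lower of 83 and a median of 0.31, while mitochondrial ribosomal proteins had 17 lower and 4 higher of 75 (median -0.59).

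LDHA, an abundant glycolytic enzyme in most cell lines, had 66 counts with BDS4 plus TGF-β and 92 in control, and TAP1 and PSMB8 had 0 counts in all 4 libraries. SZRD1 and AGPAT1, named above, were near 0 in some libraries and not in others.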
